A study of Mus musculus with 12 samples.

Results

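Spinal cord tissue just below a contusion was compared with tissue just above it in ApoE4 mice labelled synj1+/+, at 14 days after injury. The rule took the 3 RNA-seq libraries above and the 3 libraries below the lesion from mice labelled as having both synj1 alleles normal, which are 6 of the 12 libraries of the series. All mice were males that expressed human ApoE4, had their operation at an age of 4 months, and received a motor-incomplete contusion at thoracic vertebra 9, so no uninjured cord and no ApoE3 mouse enters any value here. The other 6 libraries, of ApoE4 mice labelled as having 1 inactive synj1 allele (synj1+/-) under the same injury, were used only to read some values side by side. The libraries of the 2 sites carry different sample numbers, and the labels do not say whether both segments came from the same mice.

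A contusion cuts many ascending and descending axons, so that the cord caudal to it loses much of its input from the brain. Around the epicenter, fibroblasts of the meninges and vessels lay down collagen, blood-derived macrophages and microglia clear debris and present antigen, and astrocytes form a border. The position of a cord segment along the body axis is marked for life by Hox genes, of which the high-numbered paralogs are active in caudal segments.

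The deposited table gives 1 value per gene, site and genotype, made by the authors from the 3 libraries of a group and read here as FPKM plus 1, because no value lies below 1. There is therefore no value per library, no spread between libraries and no test: every ratio given here is a description of group values without a replicate check, and the depth of a library cannot be read from the table. The authors reduced and normalized the libraries of each site separately, which applies to every level set across the sites. The ratio of the value below to the value above is given as a log2 ratio (positive when higher below), and a gene is counted as higher or lower where the values are at least 2-fold apart. Because 1 was added to each FPKM, the ratio of a gene of low value is smaller than that of its FPKM. In bulk tissue, fewer cells of a type and less RNA per cell cannot be told apart.

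SYNJ1, which encodes the phosphoinositide phosphatase of synaptic vesicle recycling, was listed at 1905 above and 1847 below the lesion in the groups labelled synj1+/+. In the groups labelled synj1+/- it was listed at 2404 above and 2593 below. The gene is thus higher in both groups labelled as carrying an inactive allele, which goes against those labels, and each value of either genotype is given for the groups as labelled. Whether any label is exchanged was not tested. Markers of spinal cord were present at both sites, among them SNAP25 of neurons (5239 above, 5272 below), MOBP of oligodendrocytes (10916 above, 10366 below) and GFAP of astrocytes (12975 above, 11117 below). These 3 markers differed by less than 1.25-fold between the sites, but each is 1 gene picked from a longer list. Of 14 pan-neuronal genes listed at both sites, 10 had a lower and 4 a higher value below. Over all genes 50.2% had a lower value below. The median log2 ratio of the 14 was -0.05, and 0.10 in synj1+/- cord. SYT1 was the furthest, at 484 above and 332 below (-0.54). Of 17 myelin genes, 14 had a lower value below, with a median of -0.32.

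The sites were alike for most genes. Of the 13647 gene rows above and 12338 below the lesion, 12027 pairs could be joined by symbol, for 12025 symbols, and 82.0% of them lay within 1.25-fold. The median log2 ratio over all joined genes was -0.00080, and the middle range from the 25th to the 75th percentile ran from -0.14 to 0.15. Below the lesion, 120 genes were at least 2-fold higher, 0.998% of those joined, and 23 were at least 2-fold lower, 0.191%. When ratios were instead centred on 39 ribosomal protein and reference genes, every log2 ratio moved down by 0.25, and 82 genes were higher and 69 lower. Weakly expressed genes varied more, with genes put into 4 equal bins by level. The median absolute deviation of log2 ratios from their bin's median was 0.18 in the lowest bin and 0.12 in the highest. Of the 120 higher genes 36, and of the 23 lower genes 4, were at or over the median level of all genes. A gene's level is the mean of its 2 values.

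**Figure D1:**
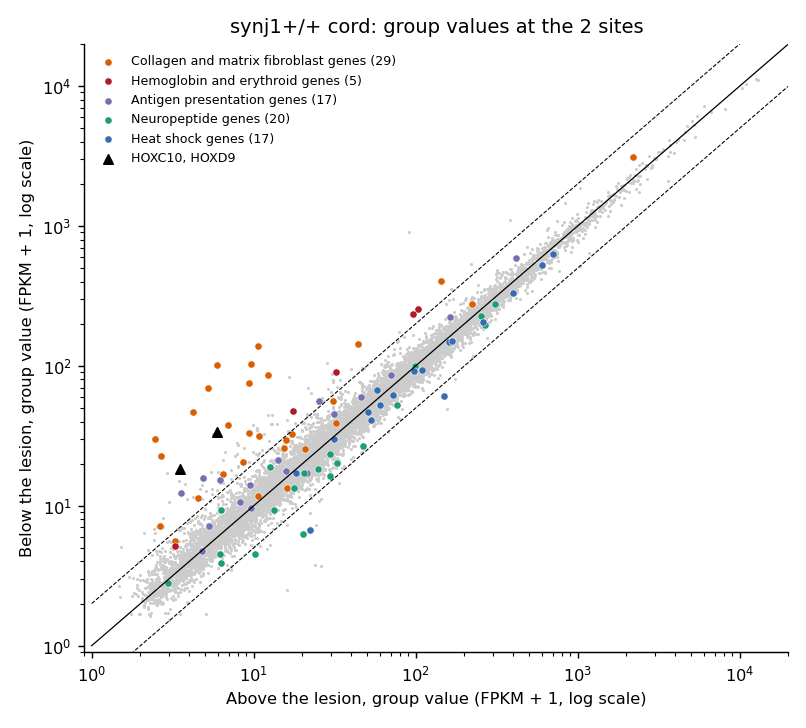
Group values of 12027 joined genes (FPKM plus 1, both axes logarithmic) above the lesion (x) and below it (y) in synj1+/+ cord, with 5 gene lists and 2 Hox genes coloured; each point is 1 gene, the solid line is equality and the dashed lines mark a 2-fold ratio. Most genes lie along equality, and most of the collagen and matrix fibroblast genes lie over the upper dashed line.

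Collagens and other extracellular matrix genes of fibroblasts were higher below, with the highest median of all 48 gene lists. Of 39 such genes, 29 were listed at both sites, 28 of the 29 had a higher value below, against 49.8% of all genes, and 18 were at least 2-fold higher, against 0.998%. Their median log2 ratio was 1.43, and 0 were at least 2-fold lower. MGP, which encodes matrix Gla protein, an inhibitor of calcification, had the highest ratio: 5.92 above and 102 below, a log2 ratio of 4.10 or 17.1-fold. COL3A1, the chain of fibrillar type III collagen, followed with 5.25 above and 69.9 below (3.73). DCN, the collagen-binding proteoglycan decorin, was at 10.6 above and 138 below (3.71).

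The chains of type I collagen, the main fibrillar collagen of scars, were higher below as well. COL1A1 was listed at 4.20 above and 47.2 below (log2 ratio 3.49), and COL1A2 at 9.32 above and 75.7 below (3.02). SERPINH1, the chaperone that folds procollagen in the endoplasmic reticulum, started from a higher level, 143 above and 406 below (1.5). POSTN, which encodes the matricellular protein periostin, was at 12.2 above and 85.9 below (2.81). The secreted Wnt antagonist gene SFRP4 was at 2.46 and 30.2 (3.62), and the proteoglycan gene BGN at 43.8 and 143 (1.70). MGP, COL3A1, DCN and COL1A1 were thus under the median value of joined genes above the lesion (33.0) and over that median below it (34.0), whereas SPARC, a matrix glycoprotein that several cell types make, was already at 2200 above and 3112 below (0.50). The 1 member with a lower value below was COL5A3, at 16.1 above and 13.3 below (-0.27).

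A further 7 matrix genes of the list were listed below the lesion only: COL8A1, COL14A1, FBN1, OGN, ASPN, LOX and MFAP5, with values from 4.47 to 19.3. LOX cross-links collagen and was at 16.6. Another 3 were listed above only, at 230 for FN1 (fibronectin), 165 for P4HA1 and 39.5 for P4HA3, which hydroxylate collagen prolines. A gene not listed at a site was not given a value there, so no ratio was formed for these 10 genes. Earlier results of these data had named 10 of the list's joined members. The other 19 had a median log2 ratio of 0.90.

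Promoters of genes that were higher together are shown here for the type I and type III collagen chains that the reference holds, as windows of 300 bases that span the start in RefSeq on GRCm38.p6, read 5′ to 3′ on the gene's strand. Capitals mark CCAAT or its reverse complement ATTGG and, on either strand, TATAAA. The first lies at chr6:4505368-4505667, plus strand, and the second at chr1:45311288-45311587, plus strand.
COL1A2: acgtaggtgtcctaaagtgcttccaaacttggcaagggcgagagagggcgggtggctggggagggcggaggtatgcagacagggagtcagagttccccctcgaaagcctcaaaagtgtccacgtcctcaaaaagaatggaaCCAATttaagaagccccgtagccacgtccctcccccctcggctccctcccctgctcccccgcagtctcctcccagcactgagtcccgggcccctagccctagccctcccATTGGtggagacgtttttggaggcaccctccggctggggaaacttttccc
COL3A1: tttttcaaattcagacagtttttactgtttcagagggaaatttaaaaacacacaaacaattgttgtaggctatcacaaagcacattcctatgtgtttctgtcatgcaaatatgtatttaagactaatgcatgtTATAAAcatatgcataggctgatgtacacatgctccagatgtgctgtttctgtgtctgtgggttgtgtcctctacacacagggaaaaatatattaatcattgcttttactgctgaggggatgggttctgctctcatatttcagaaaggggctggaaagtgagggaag
The COL1A2 window held CCAAT or ATTGG at 2 places and no TATAAA, and the COL3A1 window held TATAAA once and no CCAAT. Over 32851 promoter windows of 27025 genes, 37.4% held CCAAT on either strand and 13.6% held TATAAA. Among the 87 genes at least 2-fold higher below that had a window (108 windows) the shares were 35.2% and 13.9%, close to those of all windows.

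Fibroblast genes of the meninges and perivascular space were also higher below. Of 28 such genes, 14 were listed at both sites, 12 had a higher value below (49.8% of all genes did), 4 were at least 2-fold higher (0.998% of all), and the median log2 ratio was 0.80. IGF2, the growth factor that meningeal cells secrete, was the most abundant of the 4, at 90.4 above and 905 below (log2 ratio 3.32). IGFBP6, which encodes a binding protein that prefers IGF2, was at 2.43 above and 29.6 below (3.61). H19, the non-coding RNA that neighbours Igf2 on chromosome 7, was at 4.17 and 46.6 (3.48). FOXC1, a transcription factor of meningeal fibroblasts, was at 2.22 and 4.83 (1.12). PTGDS, the prostaglandin D synthase of the leptomeninges and oligodendrocytes, was at 833 and 1462 (0.81). A further 8 of these genes were listed below only, at 2.51 to 18.0, among them the transporter genes SLC47A1 (18.0) and SLC6A13 (15.8) and the retinoic acid enzyme ALDH1A2 (2.81).

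**Figure D2:**
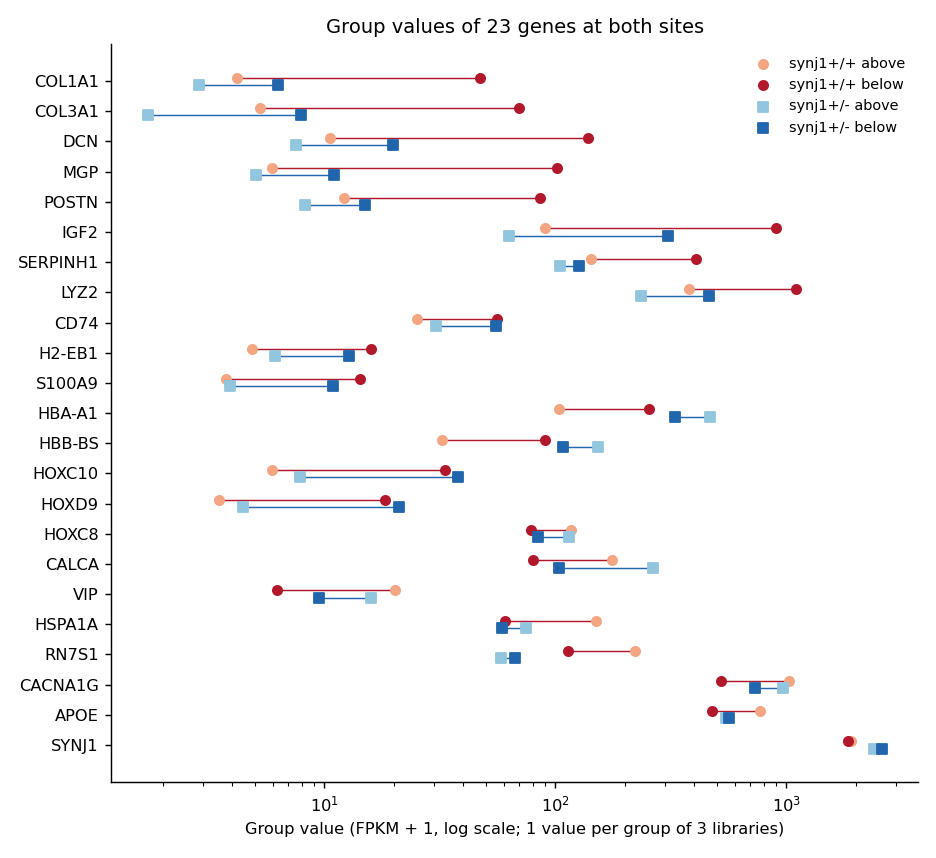
Group values (FPKM plus 1, logarithmic axis, 1 value per group of 3 libraries, no error bar possible) of 23 genes above (light) and below (dark) the lesion in the groups labelled synj1+/+ (circles) and synj1+/- (squares), with a line joining the sites of a genotype. Collagen genes such as COL1A1 are furthest apart in synj1+/+ cord, HOXC10 and HOXD9 are apart by about the same amount in both genotypes, and the lines of HBA-A1 and HBB-BS run in opposite directions. The 2 SYNJ1 values of synj1+/+ nearly coincide.

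Genes of tissue next to the cord were looked for at both sites, since nerve root, dura or muscle can lie at the edge of a segment. Of 18 Schwann cell and nerve root genes, 10 were listed at both sites with a median log2 ratio of 0.02 and a summed value of 1456 above and 1506 below, and 1 was listed above only and 2 below only. NCMAP, a peripheral myelin gene, was at 8.49 above and 20.6 below (log2 ratio 1.28). Of 12 sensory neuron genes 3 were listed at both sites (summed value 271 above, 273 below), and of 12 skeletal muscle genes 1 was, PVALB, which interneurons also express, at 39.1 and 39.4. Of the muscle genes, MYLPF (4.53) and ACTA1 (3.53) were listed below only and TNNI2 (2.44) above only. The muscle genes MYBPC1 and TNNT2, in no list and named after their values were seen, were listed below only, at 25 and 18.9. Of the bone and cartilage list, 7 of 13 genes were listed at both sites with a summed value of 1164 above and 2027 below, most of it SPP1, which macrophages also express. CTSK, the collagen-degrading protease of osteoclasts and fibroblasts, was at 12.9 and 38.7 (1.59). The part of these tissues in the higher matrix genes was not tested.

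Vessel genes had modestly higher values below. All 25 endothelial genes were listed at both sites, and 23 had a higher value below, against 49.8% of all genes. Of the 25, 0 were 2-fold apart, and the median log2 ratio was 0.31. That median was close to the 0.29 of cytosolic ribosomal protein genes. Centring on ribosomal protein and reference genes lowers it, like every log2 ratio, by 0.25. EMCN, an endothelial sialomucin, was at 8.14 above and 15.8 below (0.96), and CDH5, the cadherin of endothelial junctions, at 8.67 and 16.1 (0.89). CLDN5, the tight junction protein of the blood-brain barrier, was at 51.3 and 72.3 (0.49). Of 13 pericyte and smooth muscle genes, 10 had a higher value below, against 49.8% of all genes. At least 2-fold higher was 1, against 0.998% of all genes: ANPEP (5.55 and 13.2, 1.25), a surface peptidase of pericytes. The median of that list was 0.23 and turned to -0.0249 when centred on ribosomal protein and reference genes.

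Most genes of blood-derived myeloid cells had higher values below in synj1+/+ cord. Of 27 such genes, 12 were listed at both sites, 11 had a higher value below and 4 were at least 2-fold higher, with a median log2 ratio of 0.79. Over all genes these shares were 49.8% and 0.998%. S100A9 and S100A8, the calcium-binding pair of neutrophils and monocytes, were at 3.77 above and 14.4 below (1.93) and at 2.10 and 6.41 (1.61). MMP9, a gelatinase of neutrophils, was at 5.11 and 12.7 (1.32). CD36, a scavenger receptor for lipids, was at 48.0 and 96.4 (1.01). Apart from CD36, the 4 were of low level. In synj1+/- cord 9 of the 12 had a higher value below, 1 was at least 2-fold higher, and the median was 0.54. Over all genes these shares were 55.5% and 0.333% there. CD36 ran the other way in synj1+/- cord, at 66.3 above and 36.7 below (-0.85). The summed value of the 12 genes in synj1+/- cord was 163 above and 148 below, against 159 and 257 in synj1+/+ cord. All but 1 of 29 lymphocyte genes were listed at neither site, the exception being XBP1, which is not restricted to lymphocytes, at 88.5 and 87.1.

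Genes of microglia that respond to disease or demyelination had higher values below, and homeostatic microglia genes differed little. Of 23 disease-associated microglia genes, 21 had a higher value below, against 49.8% of all genes, and 2 were at least 2-fold higher, against 0.998%. The list's median log2 ratio was 0.50. LYZ2, lysozyme of macrophages, was at 381 above and 1101 below (1.53). IGF1, a growth factor, was at 219 and 533 (1.28), and SPP1, osteopontin, at 1039 and 1867 (0.84). Of 12 homeostatic microglia genes, 0 were 2-fold apart and the median was 0.08, with CX3CR1, the fractalkine receptor, at 118 and 133 (0.17) and TMEM119 at 60.1 and 60.4 (0.01). The 2 disease-associated genes with a lower value below were APOE (-0.69) and CSF1 (-0.16). TREM2, the lipid receptor of this state, was listed above only, at 315.

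The highest ratios among antigen presentation genes were those of class II of the major histocompatibility complex, which hands peptides to helper T cells. Of 17 antigen presentation genes, 14 had a higher value below, against 49.8% of all genes, and 4 were at least 2-fold higher, against 0.998%, with a median log2 ratio of 0.46. All 4 belong to the class II pathway. H2-AA, an alpha chain, was at 3.57 above and 12.4 below (1.79). H2-EB1, a beta chain, was at 4.85 and 15.9 (1.71), and H2-AB1, another, at 6.19 and 15.2 (1.3). CD74, the invariant chain that chaperones them, was at 25.3 and 56.2 (1.15). H2-DMB1, which helps to load class II molecules, was at 5.32 and 7.17 (0.43). That lies among the class I genes H2-T23, H2-D1, B2M, H2-Q7 and H2-Q4, whose log2 ratios ran from 0.40 to 0.59, with H2-D1 at 163 and 224 (0.46). H2-K1 of class I and H2-DMA of class II were listed above only.

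The RefSeq promoter windows of the 2 class II chains with the highest ratios are shown because both had the higher value below in either genotype. They lie on chromosome 17, at chr17:34287774-34288073, minus strand, and chr17:34305617-34305916, plus strand. Capitals have the meaning given for the collagen windows.
H2-AA: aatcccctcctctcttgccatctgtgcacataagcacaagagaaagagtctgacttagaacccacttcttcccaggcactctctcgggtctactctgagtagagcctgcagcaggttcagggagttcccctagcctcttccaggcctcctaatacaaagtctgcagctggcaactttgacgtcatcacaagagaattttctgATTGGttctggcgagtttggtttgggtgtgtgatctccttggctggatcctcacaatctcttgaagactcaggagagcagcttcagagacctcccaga
H2-EB1: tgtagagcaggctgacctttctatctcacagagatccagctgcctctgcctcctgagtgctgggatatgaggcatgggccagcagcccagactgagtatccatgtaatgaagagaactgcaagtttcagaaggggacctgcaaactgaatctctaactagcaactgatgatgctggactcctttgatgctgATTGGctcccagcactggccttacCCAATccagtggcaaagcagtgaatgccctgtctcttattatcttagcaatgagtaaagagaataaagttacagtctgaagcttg
The H2-AA window held ATTGG once, and the H2-EB1 window held ATTGG once and CCAAT once. Neither held TATAAA.

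Complement and chemokine genes were mixed, and their counts stand against 49.8% of all genes with a higher value below and 0.998% at least 2-fold higher. Of 16 complement genes, 10 had a higher value below and 2 were at least 2-fold higher, SERPING1, the C1 inhibitor (21.6 above, 69.9 below, log2 ratio 1.69), and C1RA, a protease of the first component (2.74 and 7.08, 1.37). The chains of C1q, C1QA, C1QB and C1QC, had log2 ratios from 0.53 to 0.59, whereas C3 was at 74.4 and 59.2 (-0.33). Of 20 chemokine and cytokine genes, 16 had a higher value below and 3 were at least 2-fold higher, with a median of 0.56. CCL8 (2.74 and 8.19, 1.58) and CCL2 (2.43 and 5.67, 1.22), which attract monocytes, were close to the floor. CXCL12, made by meningeal and stromal cells, was at 46.5 and 93.3 (1.00). The 27 interferon-stimulated genes had a median of 0.13 and none was 2-fold apart, and that median turned to -0.12 under the centring on ribosomal protein and reference genes.

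Among matrix proteases and their inhibitors, 3 of 18 genes were at least 2-fold higher below, against 0.998% of all genes, and 12 of 18 had a higher value below, against 49.8%. The 3 were MMP12, MMP9 and MMP2. MMP12, the macrophage elastase, was at 22.7 above and 64.0 below (log2 ratio 1.5), and MMP2, a gelatinase of fibroblasts, at 8.03 and 19.2 (1.26). The list median was 0.19 and became -0.0595 when centred on ribosomal protein and reference genes. The list of chondroitin sulfate proteoglycans, an axon-repelling matrix of the glial border, also held other matrix genes, such as the tenascin genes TNC and TNR. Its median was -0.03 over 15 genes, and 0 were 2-fold apart. TNC, tenascin C, was at 25.4 and 16.7 (-0.60), and NCAN, neurocan, at 32.7 and 23.6 (-0.47).

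Hemoglobin genes were higher below in the synj1+/+ groups. All 5 erythroid genes listed at both sites had a higher value below, against 49.8% of all genes. At least 2-fold higher were 4 of them, against 0.998% of all genes, and the median log2 ratio was 1.3. HBA-A1, an alpha globin, was at 104 above and 256 below (1.3), and HBB-BS, a beta globin, at 32.2 and 90.2 (1.49). In the groups labelled synj1+/- the same genes were higher above: HBA-A1 was at 469 above and 330 below (-0.51) and HBB-BS at 153 and 108 (-0.50). The summed value of the 5 genes was thus lowest in synj1+/+ cord above the lesion, 253, against 634, 1138 and 830 in synj1+/+ below, synj1+/- above and synj1+/- below. Alpha globin copies are near-identical, so HBA-A1 and HBA-A2 may share reads.

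Of the 26 Hox genes listed at both sites, HOXC10 and HOXD9 were at least 2-fold higher below in both genotypes, and HOXA9 was higher by less. Over all genes 0.998% were at least 2-fold higher below in synj1+/+ cord and 0.333% in synj1+/- cord. HOXC10 on chromosome 15 was at 5.95 above and 33.5 below the lesion in synj1+/+ cord (log2 ratio 2.49), and at 7.86 and 38.0 in synj1+/- cord (2.27). HOXD9 on chromosome 2 was at 3.49 and 18.3 (2.39), and in synj1+/- cord at 4.44 and 21.2 (2.25). HOXA9 was at 36.6 and 66.0 (0.85), with 0.86 in synj1+/- cord. Each of these genes encodes a transcription factor of caudal segments, and each had the higher value at the caudal site in either genotype. HOXD10 was listed below only, at 13.4, and HOXA10 above only, at 3.53.

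The other Hox genes were close between the sites or higher above. HOXC9 (14.0 above, 12.1 below, log2 ratio -0.21) and HOXB9 (33.6 and 33.1, -0.02) did not follow HOXD9 and HOXA9, although all carry the number 9. Of 21 genes of paralog groups 1 to 8, 14 had a lower value below, against 50.2% of all genes, 0 were 2-fold apart, and the median was -0.20. HOXC8 was furthest on the side of higher above, at 117 and 78.6 (-0.57), with 115 and 84.0 (-0.45) in synj1+/- cord. HOXB7 (-0.48), HOXB6 (-0.41) and HOXB5 (-0.37) followed, and HOXC4 had the highest ratio of this set, at 46.1 and 60.3 (0.39). HOXB8 was the most abundant Hox gene, at 677 and 559 (-0.28). The higher values of HOXC10, HOXD9 and HOXA9 at the caudal site match the site labels of these groups.

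**Figure D3:**
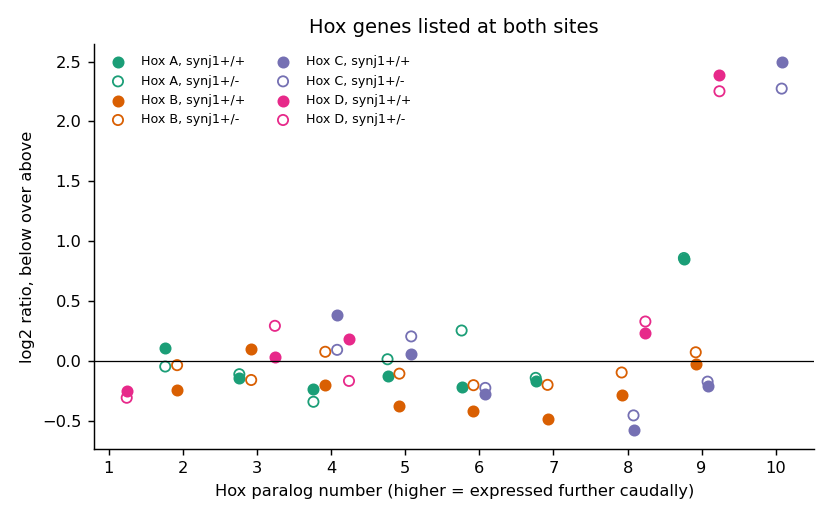
Log2 ratio of the value below to the value above the lesion (y) for 26 Hox genes listed at both sites, by paralog number (x, shifted sideways by cluster), with filled symbols for synj1+/+ and open symbols for synj1+/-. HOXC10 and HOXD9 stand at 2.25 to 2.49 in both genotypes, HOXA9 at 0.85 to 0.86, and the other genes lie between -0.57 and 0.39.

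Neuropeptide genes had the lowest median of the neuronal lists. Of 20 genes, 17 had a lower value below, against 50.2% of all genes, 2 were at least 2-fold lower against a background of 0.191% of all genes, and the median log2 ratio was -0.44. VIP, vasoactive intestinal peptide, was at 20.3 above and 6.26 below (-1.70). GAL, galanin, was at 10.2 and 4.50 (-1.18). PNOC, the nociceptin precursor, was at 29.8 and 16.5 (-0.86), and CARTPT at 47.4 and 26.5 (-0.84). The more abundant SST, somatostatin of dorsal horn neurons, was at 268 and 195 (-0.46), and PENK, proenkephalin, at 307 and 276 (-0.15). The 3 members with a higher value below were POMC, NMB and CCK, at log2 ratios of 0.59, 0.58 and 0.02.

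CALCA, the gene of calcitonin gene-related peptide in motor neurons and nociceptors, was at 176 above and 80.4 below (log2 ratio -1.13) and was 2-fold lower in synj1+/- cord too (265 and 104, -1.35). UTS2, the motor neuron peptide urotensin 2, was lower below by a smaller amount in both, at 15.2 and 8.68 (-0.81) and in synj1+/- cord at 17.1 and 9.86 (-0.79). Of 21 neurofilament and motor neuron genes, 11 had a lower and 10 a higher value below, with a median of -0.01. Over all genes 50.2% had a lower value below. Of the cholinergic genes, the choline transporter gene SLC5A7 was at 85.0 and 60.9 (-0.48), CHAT, the enzyme of acetylcholine synthesis, at 10.9 and 8.57 (-0.34), and SLC18A3, the vesicular acetylcholine transporter, had a log2 ratio of -0.23, whereas in synj1+/- cord CHAT and SLC18A3 had log2 ratios of 0.23 and 0.13. The neurofilament genes NEFL, NEFM and NEFH had log2 ratios from 0.17 to 0.27. The list's summed value, 4231 above and 5287 below, rests largely on SPP1 (1039 and 1867), which microglia also express.

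Genes of excitatory and inhibitory transmission had slightly lower values below in synj1+/+ cord. Of 24 excitatory transmitter and receptor genes 21 had a lower value below, against 50.2% of all genes, and the median log2 ratio was -0.28. NRGN, a calmodulin-binding postsynaptic protein, was at 15.7 and 9.54 (-0.72), GRM8, a metabotropic glutamate receptor, at 29.3 and 18.2 (-0.69), and CAMK2A at 165 and 116 (-0.51). Of 22 inhibitory genes 20 had a lower value below, against the same 50.2%, with a median of -0.19. GAD1 and GAD2, the enzymes that make GABA, were at 317 and 239 (-0.41) and at 30.5 and 22.4 (-0.44). SLC6A5, the glycine transporter of inhibitory terminals, was at 355 and 327 (-0.12). In both lists 0 genes were 2-fold apart. In synj1+/- cord the excitatory median was -0.08, and 9 of the 24 genes had a higher value below, against 55.5% of all genes there. The inhibitory median was 0.04 there, with 13 of the 22 higher below, close to the 55.5% of all genes. Among them was SLC6A5, at 327 above and 420 below (0.36).

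Voltage-gated ion channel genes had lower values below as well. CACNA1G, a low-threshold calcium channel, had the lowest ratio of these and was at 1026 above and 520 below (log2 ratio -0.98). Of 28 voltage-gated channel genes 23 had a lower value below, against 50.2% of all genes, with a median of -0.27. They included KCND3 (25 and 15, -0.74) and KCNC2 (220 and 148, -0.57). In synj1+/- cord the median of the 28 channel genes was -0.10, and 10 had a higher value below, against 55.5% of all genes there. The synaptic vesicle and endocytic genes, the pathway in which synaptojanin 1 acts, were close to equality, with a median of -0.09 over 25 genes. A lower value below was seen for 18 of them, against 50.2% of all genes, and 0 were 2-fold apart. DNM1, the dynamin of vesicle scission, was at 10327 and 9760 (-0.08). Of that list, 10 genes were listed above only, among them SYN1, CLTC and PICALM, and 2 below only. Of 28 spinal interneuron transcription factors 17 had a lower value below, against the same 50.2%, and the median was -0.08. TLX3 (7.68 and 4.81, -0.67) and EBF2 (13.3 and 8.86, -0.59), both of dorsal horn neurons, were the furthest.

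Genes that neurons express when injured or growing had lower values below. Of 14 such genes, 12 had a lower value below, against 50.2% of all genes, and 1 (GAL) was at least 2-fold lower, against 0.191%. The median log2 ratio was -0.29. VGF, a secreted neurotrophin-induced protein, was abundant, at 3602 above and 2094 below (-0.78). BDNF, the neurotrophin, was at 35.2 and 23.1 (-0.61). GAP43, the growth-associated protein of axon tips, was at 172 and 134 (-0.36). In synj1+/- cord the median of this list was -0.38, and 3 genes were 2-fold lower below, against 0.125% of all genes.

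Myelin and cholesterol genes had lower values below by small amounts. Of 17 myelin and mature oligodendrocyte genes 14 had a lower value below, against 50.2% of all genes, with a median log2 ratio of -0.32. KLK6, a protease of oligodendrocytes, was at 1176 above and 643 below (-0.87), MOG at 283 and 206 (-0.46), and FA2H, which hydroxylates myelin lipids, at 95.1 and 65.4 (-0.54). ENPP6, a choline phosphodiesterase of newly formed oligodendrocytes, was at 138 and 82.3 (-0.75) in the precursor list, whose median over 14 genes was -0.10. Of 20 cholesterol synthesis genes 18 had a lower value below, against the same 50.2%, with a median of -0.31. They included CYP51 (30.3 and 21.6, -0.49) and SQLE (27.7 and 20.3, -0.44). Lipid transport genes ran the other way for 13 of 18, against 49.8% of all genes, with a median of 0.32. ABCA1, the cholesterol exporter, was at 62.8 and 89.9 (0.52).

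APOE, the lipid carrier that is human in these mice, was at 767 above and 477 below (log2 ratio -0.69) in synj1+/+ cord, and at 549 and 564 (0.04) in synj1+/- cord. The reads were counted on the mouse genome, and how far this value reflects the human transcript was not tested. Astrocyte genes were close to equality: the 18 homeostatic genes had a median of 0.02 and none was 2-fold apart. Of 24 reactive astrocyte genes, 15 had a higher value below and 2 were at least 2-fold higher, against 49.8% and 0.998% of all genes. The 2 were LCN2, lipocalin 2 (6.49 and 21.3, 1.72), and CP, ceruloplasmin (39.7 and 95, 1.26), both also made by other cells. That list's median was 0.16 and turned to -0.086 when centred on ribosomal protein and reference genes. Of 7 ependymal genes, 4 had a lower and 3 a higher value below, with a median of -0.16. Over all genes 50.2% had a lower value below. CCDC153, a protein of motile cilia, was the 1 gene at least 2-fold lower (22.3 and 8.88, -1.33), against 0.191% of all genes. FOXJ1, the regulator of ciliogenesis, was at 46.9 and 41.8 (-0.16), whereas CFAP126 was at 24.5 and 33.2 (0.44). In synj1+/- cord 4 of the 7 had a higher value below, close to the 55.5% of all genes there, with a median of 0.07.

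Several of the 23 genes that were lower below share features other than a cell type. The inducible chaperone genes HSPA1B and HSPA1A, which lie next to each other on chromosome 17, were at 22.2 above and 6.66 below (log2 ratio -1.74) and at 150 and 60.4 (-1.31). The other 15 heat shock genes were less than 2-fold apart, and 16 of all 17 had a lower value below, with a median of -0.20. Over all genes 50.2% had a lower value below and 0.191% were at least 2-fold lower. In synj1+/- cord HSPA1B was at 7.78 and 5.80 (-0.42), HSPA1A at 74.4 and 58.7 (-0.34), and the list's median was -0.0063. HSPA1A and HSPA1B are near-identical in sequence and may share reads. LILRB4A, a leukocyte receptor, is listed once above, at 157, and on 2 rows below, at 219 and 49.5, so its ratio is uncertain.

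The lowest ratios belonged to small structural RNA genes, which are named after their values were seen. LOC115487918, LOC115487916, LOC115487917 and RNU2-10, annotated as small nuclear RNAs within one stretch of chromosome 11, were at 16.1 to 26.1 above and 2.5 to 7.25 below, with log2 ratios of -2.81, -2.69, -2.66 and -1.75. Their copies may share reads. In synj1+/- cord these 4 genes were close to the floor, at 1.38 to 3.33 above and 1.72 to 3.49 below. Their log2 ratios there were -0.95, 0.40, 0.42 and 0.56 in the same order. RN7SK, which restrains transcription elongation, was at 33.6 and 14.5 (-1.21), and RN7S1, an RNA of the signal recognition particle, at 221 and 113 (-0.96). In synj1+/- cord RN7S1 was at 58.2 above and 66.7 below (0.19), so the group above the lesion in synj1+/+ cord had the highest value of the 4 groups. The median of 6 small structural RNA genes was -0.73, and 0.09 in synj1+/- cord. The part of RNA preparation or of a single library in these values was not tested, since no library can be read on its own.

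Among genes at or over the median level, the 15 highest ratios belonged to 11 genes of matrix, fibroblasts, macrophages or complement already given and to 4 others. As level is the mean of the 2 values compared, 11 of these 15 genes reached it through the value below: above the lesion they lay under the median value of joined genes (33.0). ISLR, a leucine-rich repeat protein of stromal cells, was at 9.65 above and 102 below (log2 ratio 3.41). IFITM1, an interferon-induced membrane protein, was at 16.6 and 83.5 (2.33). RCN3, a calcium-binding protein of the endoplasmic reticulum, was at 28.3 and 105 (1.89), and HSPG2, the basement membrane proteoglycan perlecan, at 30.6 and 87.8 (1.52). At the other end, RETNLA, a secreted protein of alternatively activated macrophages, was at 67.9 and 33.6 (-1.02). SSPO, which encodes the main protein of the fibre in the central canal, was at 78.2 and 42.8 (-0.87), and SEMA3B, an axon guidance molecule, at 275 and 158 (-0.80). In synj1+/- cord SSPO had a log2 ratio of -1.06 and SEMA3B of -0.77, whereas RETNLA was at 26.1 above and 36.4 below (0.48). LRRC7, a postsynaptic scaffold gene, MOB3B and ENO1B had ratios of -0.95, -0.95 and -0.94.

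Genes that respond to activity, stress hormone or time of day had medians close to 0. The medians were -0.00041 for 21 immediate-early genes, -0.03 for 17 glucocorticoid-responsive genes and 0.02 for 18 circadian clock genes. Of the first, CCN2, a matricellular protein of fibroblasts, was 2-fold higher below (6.48 and 14.5, 1.16), whereas FOS was at 18.3 and 17.0 (-0.10). The glucocorticoid-responsive genes ran from -0.60 for SGK1, a kinase (520 and 344), to 1.72 for LCN2, the 1 member at least 2-fold higher below. Over all genes 0.998% were at least 2-fold higher below.

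Of the housekeeping lists, 26 of 27 cytosolic ribosomal protein genes had a higher value below, against 49.8% of all genes. Their median log2 ratio was 0.29, with a range from -0.07 to 0.44. The 27 oxidative phosphorylation genes had a median of 0.12 and the 12 reference genes 0.12, and both turned to -0.13 when centred on the ribosomal protein and reference genes. In synj1+/- cord the ribosomal median was 0.08. Of 10 cell cycle genes 8 had a higher value below, against 49.8% of all genes. Their median of 0.21 turned to -0.043 under the same centring. A further 5 cell cycle genes (CDK1, AURKA, PLK1, MCM5 and TYMS) were listed below only, at 2.28 to 11.4. Another 2, TOP2A (6.45) and NUSAP1 (4.27), were listed above only.

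**Figure D4:**
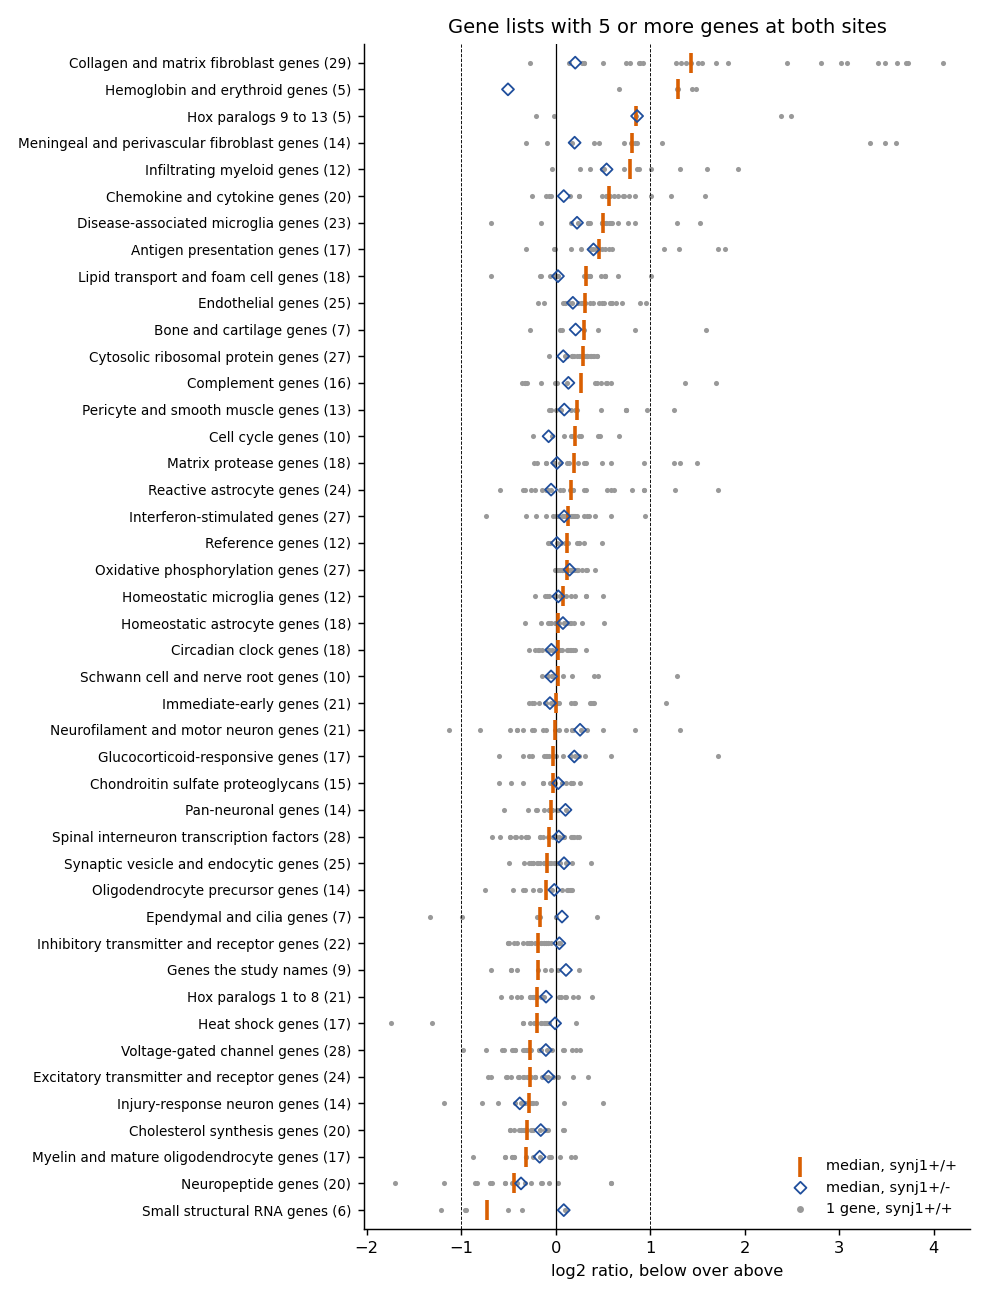
Log2 ratio of the value below to the value above the lesion (x) for each gene list with at least 5 genes at both sites (y, number of genes in brackets): grey points are single genes in synj1+/+ cord, orange bars their medians and open diamonds the medians in synj1+/- cord; dashed lines mark a 2-fold ratio. Matrix fibroblast genes have the highest median (1.43) and small structural RNA genes the lowest (-0.73), and the 2 genotypes are furthest apart for hemoglobin genes (1.3 and -0.51).

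Apart from APOE, the genes that the study singled out were less than 1.5-fold apart between the sites in synj1+/+ cord. GRIK1, a kainate receptor subunit, was at 27.8 above and 28.4 below (log2 ratio 0.03), and SLC17A7, a vesicular glutamate transporter, at 2.28 and 1.64 (-0.48), close to the floor. The adhesion genes CDH8 and KIRREL3 were at 77.1 and 55.5 (-0.47) and at 173 and 152 (-0.19). ARHGAP6 was at 31.1 and 23.4 (-0.41), and ATL1, which shapes the endoplasmic reticulum of axons, at 33.4 and 30.9 (-0.11). Of these 6, 5 had the higher value above. In synj1+/- cord GRIK1 was at 55.5 and 41.5 (-0.42) and SLC17A7 at 2.77 and 3.51 (0.34).

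Genes listed at 1 site only differed in level. The 1621 rows listed above only had a median value of 82.9 (25th to 75th percentile 27.5 to 218), over the median of 33.0 of joined genes at that site, and included abundant neuronal genes such as ANK2 (9290), NCAM1 (2248) and RBFOX3 (1486). The 312 rows listed below only had a median of 4.88 (2.87 to 9.14). A gene of such level as ANK2 cannot be read as absent below: the table gives no value there, and these rows entered no ratio.

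The ratios of the 143 genes that were at least 2-fold apart were set beside those of the groups labelled synj1+/-, which share no library with the synj1+/+ groups. Of the 120 genes higher below, 101 also had a higher value below in synj1+/- cord, where 55.5% of all genes did, and 15 were 2-fold higher there, where 0.333% of all genes were. Their median log2 ratio was 1.45 in synj1+/+ and 0.37 in synj1+/- cord. The 15 genes, named after their values were seen, were the matrix genes COL3A1, COL1A1, DCN and MGP, the growth factor gene IGF2, HOXC10 and HOXD9, the myeloid genes S100A9, CD5L, MS4A7 and H2-EB1, the stress-induced genes LCN2 and GDF15, and GM4724 and GM9780. GM4724 is listed on 2 rows above, at 30.2 and 38.5, and once below, at 65.0, so its ratio is uncertain too. Of the 23 genes lower below, 14 had a lower value in synj1+/- cord as well, where 44.5% of all genes did, and 3 were 2-fold lower, where 0.125% of all were: CALCA, GAL and the uncertain LILRB4A. The difference between the genotypes' ratios was not tested, because no spread is given.

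The group below the lesion in synj1+/+ cord had the highest of the 4 values for 28 of the 29 collagen and matrix fibroblast genes, against 28.4% of all genes. Their median log2 ratio was 1.43 in synj1+/+ and 0.21 in synj1+/- cord. COL1A1 was at 2.88 above and 6.29 below in synj1+/- cord (1.13), MGP at 5.09 and 11.0 (1.11), and SFRP4 at 2.57 and 3.08 (0.26). HOXC10 and HOXD9 had their highest values below the lesion in synj1+/- cord. Across all 12027 genes the 2 genotypes' log2 ratios had a Pearson r of 0.32, and 0.41 over the 6014 genes at or over the median level. Genes are not independent replicates, and each ratio shares the normalization of its sites.

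**Figure D5:**
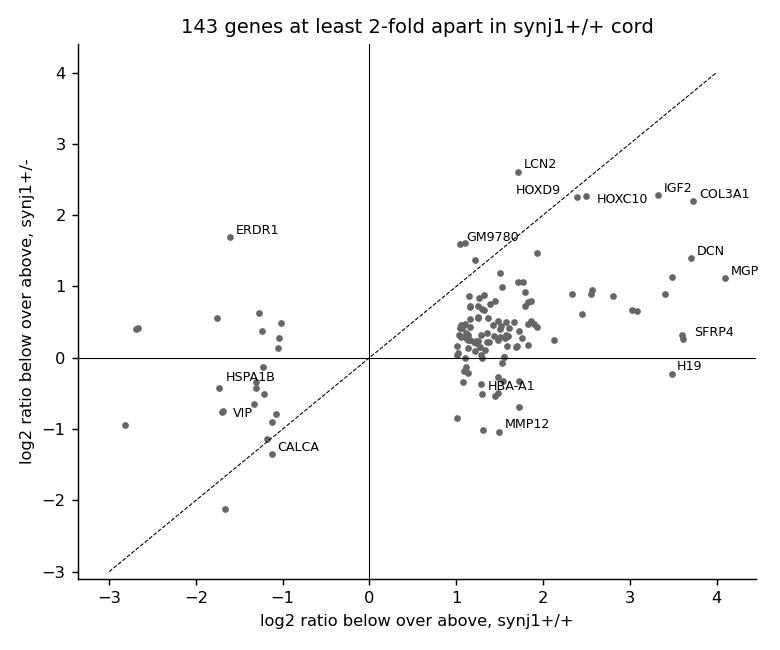
Log2 ratio below over above the lesion in synj1+/+ cord (x) against synj1+/- cord (y) for the 143 genes at least 2-fold apart in synj1+/+ cord; each point is 1 gene and the dashed line marks equal ratios. HOXC10 and HOXD9 lie near the line, COL3A1 and MGP below it, and MMP12 and ERDR1 have opposite signs in the 2 genotypes.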

How the data were processed

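Total RNA from cord segments above and below a contusion was sequenced in 12 libraries, grouped here by site and labelled genotype. Per the submitters' processing notes, STAR 2.5.4b, Cuffdiff 1.3.0 and GRCm38.p6 were used, and per the study's methods the libraries of each site were reduced at random to the smallest and normalized to the upper quartile. The authors deposited FPKM values plus 1, 1 per gene and group. The table has 0 columns of single samples. Its other columns hold the authors' fold changes, p-values and q-values between genotypes within a site, and were not used, nor was the shorter list at a p threshold.

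The synj1+/+ values of the sites were joined by symbol, and the log2 ratio of below to above was computed with Python 3.11.15, numpy 2.4.6, pandas 2.3.3 and matplotlib 3.10.9. A 2-fold ratio was the threshold. No test was run. The joining and counting were checked on simulated data. Of 1048 list symbols, 724 were joined. The genes, lists and comparison were chosen with earlier results of these data known. Named genes are those the study names, the 15 highest and 15 lowest ratios at or over the median level, the 4 furthest members and the first member of each list, and Hox genes. Other genes were named after their values were seen. Alternatives were another centring or scaling, another added value, a filter on level and other fold thresholds. Promoters are from RefSeq.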

Additional observations from a re-analysis of the deposited data

Results flagged for a closer look

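Of the genes at least 2-fold apart in synj1+/+ cord, 3 were at least 2-fold apart in the opposite direction in synj1+/- cord. MMP12, the macrophage elastase gene, had a log2 ratio of below to above of 1.5 in synj1+/+ cord (22.7 above, 64.0 below) and -1.04 in synj1+/- cord (46.0 and 22.3). BC028528, a gene without a name, had 1.31 (9.86 and 24.4) and -1.01 (15.5 and 7.72). ERDR1, annotated as a transcribed pseudogene on chromosome X, had -1.61 (5.09 and 1.67) and 1.69 (2.25 and 7.23), all close to the floor of 1. These differences were not tested, because each group has 1 value, and the genotypes are those of the labels, which SYNJ1 goes against.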

How the results depend on the processing

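The count of 120 genes at least 2-fold higher below became 36 among genes at or over the median level, 392 at 1.5-fold and 19 at 4-fold. The count of 23 lower genes became 4, 164 and 3 under these settings, 38 when the added 1 was taken off, and 69 when ratios were centred on ribosomal protein and reference genes. That centring moved the median of all genes to -0.25 and the medians of 7 lists below 0: reactive astrocyte genes to -0.086, interferon-stimulated genes to -0.12, pericyte and smooth muscle genes to -0.0249, cell cycle genes to -0.043, matrix protease genes to -0.0595, oxidative phosphorylation genes to -0.13 and reference genes to -0.13. By construction it lowers every ratio by the same amount. Equal sums, equal upper quartiles, centring on the median of all genes, a further 1 added, both values at least 2 and repeated symbols left out moved neither count by over 1.5 times. The number of lists with a median of at least 0.5 was 7 and stayed between 5 and 8. Leaving out the 10 collagen list members that earlier results had named, chosen after seeing the data, gave a median of 0.90 over 19 genes.

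No paired analysis was possible because the table gives 1 value per group, and for the same reason no replicate was left out in turn. The depth of single libraries is unknown.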
